A study of Mus musculus with 12 samples.

Results

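The peaks described here are the 4513 regions that the authors' peak caller reported for 1 immunoprecipitate of MC3T3-E1 cells with MACF1 knocked down, the knockdown library numbered 2. Every peak of that list was taken, which makes 4513 of the 46669 peaks in the 6 lists of the series. MC3T3-E1 is an established mouse osteoblast line, and the study compared MACF1 knockdown cells with control cells of that line by chromatin immunoprecipitation with an antibody to MACF1 (Abcam ab117418), each library beside an input with no antibody. Knockdown immunoprecipitates, knockdown inputs, control immunoprecipitates and control inputs had 3 samples each, labelled 1, 2 and size3. The 2 antibody lots are listed without saying which sample received which. Nor do the labels say how the knockdown was made, whether it is 1 clone, or whether the 3 samples came from separate cultures, so a comparison between lists measures the spread between these libraries. Peak positions carry no expression of osteoblast markers, so the labelled cell type could not be checked.

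MACF1 is a spectraplakin, a very long protein that binds actin filaments and microtubules and crosslinks them. In osteoblast cultures of mice it is known for a part in differentiation and in Wnt signalling, where it was described as a partner of the Axin complex. A peak in such an experiment is a stretch of genome where the immunoprecipitate holds more reads than the input leads the caller to expect; its summit is the position with most overlapping fragments.

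Few of these peaks met a gene start, and the promoters that did are shown first because they are the places where a peak touches the regulatory sequence of a named gene. Of 32851 RefSeq promoter windows of 300 bases (250 before to 50 after the start, GRCm38.p6), 13 were touched by a peak, or 0.0396%, and 13 peaks (0.288% of the list) did so. Of these windows 5 belonged to protein-coding genes. The 3 with the most reads in the peak are printed 5′ to 3′ along the gene, with the bases inside the peak in capitals. Kansl1l, related to a subunit of the NSL histone acetyltransferase complex, has its window at chr1:66817546-66817845 on the minus strand. That of Tsga13, a testis-specific gene, is at chr6:30915524-30915823 on the minus strand. Dach2, a transcription cofactor of the dachshund family, has its window at chrX:113297260-113297559 on the plus strand.
Kansl1l: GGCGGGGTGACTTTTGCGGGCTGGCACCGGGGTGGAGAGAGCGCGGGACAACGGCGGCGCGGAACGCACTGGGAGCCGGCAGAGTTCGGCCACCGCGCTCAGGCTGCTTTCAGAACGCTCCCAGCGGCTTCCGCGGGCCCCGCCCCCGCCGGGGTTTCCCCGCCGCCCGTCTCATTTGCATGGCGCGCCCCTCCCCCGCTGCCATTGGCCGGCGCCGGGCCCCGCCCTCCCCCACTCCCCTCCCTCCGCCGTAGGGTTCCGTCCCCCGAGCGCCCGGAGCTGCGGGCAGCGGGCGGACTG
Tsga13: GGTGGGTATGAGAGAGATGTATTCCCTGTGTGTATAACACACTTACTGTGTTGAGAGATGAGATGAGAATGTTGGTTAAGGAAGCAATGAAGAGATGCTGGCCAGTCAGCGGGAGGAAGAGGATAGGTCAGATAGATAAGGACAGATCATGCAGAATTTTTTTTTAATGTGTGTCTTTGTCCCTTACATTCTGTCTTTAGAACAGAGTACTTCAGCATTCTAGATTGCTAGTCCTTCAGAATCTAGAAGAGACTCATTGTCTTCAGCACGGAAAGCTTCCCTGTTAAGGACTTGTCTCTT
Dach2: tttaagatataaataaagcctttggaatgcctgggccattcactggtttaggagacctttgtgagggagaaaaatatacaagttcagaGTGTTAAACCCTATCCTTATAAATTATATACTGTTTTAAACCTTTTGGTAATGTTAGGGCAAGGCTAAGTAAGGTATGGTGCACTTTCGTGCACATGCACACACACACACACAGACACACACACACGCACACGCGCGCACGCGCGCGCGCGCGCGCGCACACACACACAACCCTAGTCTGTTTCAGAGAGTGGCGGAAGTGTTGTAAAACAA

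The whole Kansl1l window lay in a peak of 21 reads with a fold enrichment of 6.76, and its summit stood 26 bp from the gene start. Tsga13 was also covered over all 300 bases, by a peak of 13 reads and a fold enrichment of 18.2 whose summit lay 39 bp from the start. The Dach2 peak held 15 reads at a fold enrichment of 33.8, with its summit 15 bp from the start and 212 bases of the window inside it. In that order the scores, 10 times the negative log10 of the caller's p, were 50.35, 91.93 and 146.39, where 50 is the caller's threshold. The caller's false discovery rate was 100% for the Dach2 peak, and none of the 13 peaks touching a window had a rate of at most 5%. These windows differ in composition. G and C made up 76.7% of the Kansl1l window, 41.7% of Tsga13 and 45.3% of Dach2, against a median of 52.7% over all windows. In Dach2 the covered part holds a run of 55 bases that alternate purine and pyrimidine, and 11 of all windows (0.0335%) hold a run as long; this feature was looked for after the sequence had been seen. The other protein-coding windows were those of Sec31a, which codes for a coat protein of vesicles leaving the endoplasmic reticulum, and 4930568D16Rik, each touched by a peak of 8 reads.

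Over the 13 touched windows the median G and C content was 44.3%, with a median of 4 CpG sites, against 52.7% and 7 over all windows. Peaks of knockdown 1 touched 12.7% of the windows and those of knockdown size3 5.99%, with medians of 63.3% and 62.3% G and C. Control lists touched between 1 and 65 windows. Motifs were searched on both strands. The E-box CANNTG was in 10 of the 13 windows and in 72.3% of all windows; the more specific CAGCTG, which is also counted as a CANNTG, was in 0 of 13 and in 16.3% of all; and CTTTGA, the core recognised by TCF/LEF factors, was in 2 of 13 and in 5257 of all 32851. None of the 1005 miRNA hairpins of RefSeq was touched by a knockdown 2 peak, against 100 touched by peaks of knockdown 1 and 37 by those of knockdown size3. Control 1 and control 2 also touched 0, and control size3 touched 2.

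Before the shape of the peaks is read, the depth behind them is needed. After removal of duplicates this immunoprecipitate kept 5575205 of 15731693 reads, a redundant rate of 0.65, and its input kept 28266305, or 5.07 times as many. The other 5 immunoprecipitates kept between 8175173 and 33085606 reads at redundant rates of 0.01 to 0.51, with inputs of 0.8 to 1.47 times their size. The fragment length the caller used was 129 bp here, 209 bp in knockdown 1, 198 bp in knockdown size3 and exactly 200 bp in each control list. Of the reads kept, 70164 lay in peaks, or 1.26% (Wilson 95% interval 1.25 to 1.27%, which covers counting error only). That share was 8.97% in knockdown 1, 4.57% in knockdown size3 and between 0.0722% and 0.366% in the control lists.

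Knockdown 2 peaks were narrow and held few reads. Their median width was 359 bp, with the middle 50% between 318 and 387 bp and 94.5% under 500 bp. Among the other lists the median width was 990 bp in knockdown 1, 647 bp in knockdown size3, 731.5 bp in control 1, 935.5 bp in control 2 and 650 bp in control size3. The knockdown 2 median thus lay below each of the 5 others, at 0.461 times their mean on the log2 scale (a difference of -1.12; two-sided exact permutation test, p = 0.167, the smallest that the 6 possible assignments allow). The list was picked with its narrow peaks and many duplicates already known, so this rank and p are description and no support. With each list limited to its 198 best-scoring peaks the difference was -1.435 (exact permutation p = 0.333). The narrowest peak spanned 137 bp and the widest 15914 bp, and 22 peaks reached 1 kb.

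**Figure D1:**
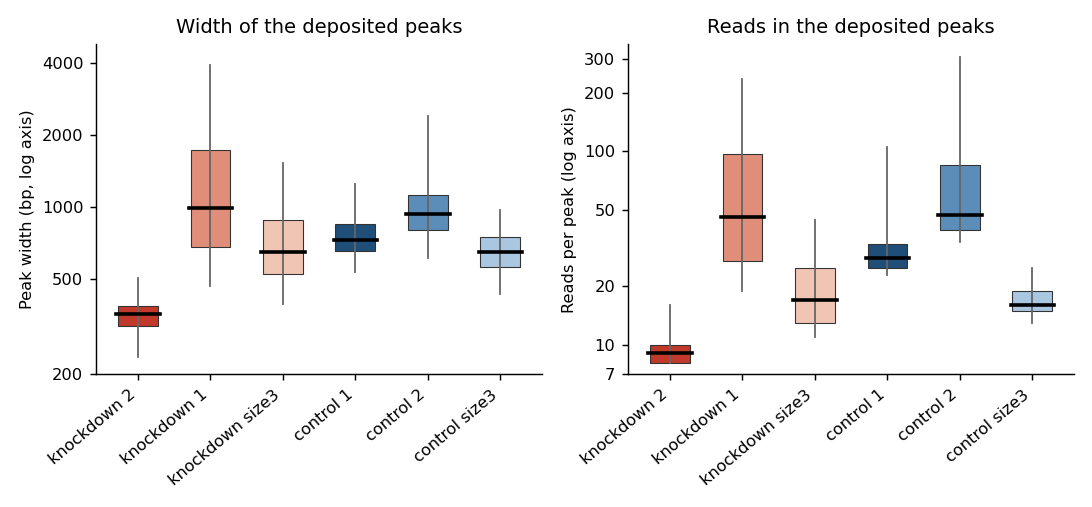
Width in bp (left) and reads per peak (right) of the 6 deposited peak lists, on log axes; boxes run between the quartiles, black bars are medians and thin lines reach from the 5th to the 95th percentile. Knockdown 2 has the narrowest peaks (median 359 bp) and the fewest reads (median 9) of the 6 lists.

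The reads tell of the same narrow range. A median knockdown 2 peak held 9 reads, and 2069 peaks (45.8%) held 8, the smallest number in the list. Spread evenly over the effective genome, the library would place 1.07 reads in 359 bp. Medians elsewhere were 46 reads in knockdown 1, 17 in knockdown size3, 28 in control 1, 47 in control 2 and 16 in control size3, so that knockdown 2 again stood lowest (log2 difference from the mean of the 5 others -1.62; exact permutation test, p = 0.167, again the smallest possible). The exact permutation p was 0.333 at a score of at least 70 (difference -2.014) and 0.5 with the 198 best-scoring peaks of each list (-0.8157). As the list was picked with earlier results known, rank and p are description for the reads too. The part that depth and duplicates play in width and reads was not tested. The score, 10 times the negative log10 of the caller's p, ran from 50, the caller's threshold, to 3172.08 with a median of 62.38.

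Fold enrichments fell on a ladder of values. The mean coverage of the library was 0.385 fragments per base, so 1 fragment at a summit is worth a fold enrichment of 2.60. Whole multiples of that step, within 0.011, accounted for 2809 peaks (62.2%). Most often the multiple was 6 fragments (15.6-fold, 877 peaks), followed by 5 fragments (637 peaks), 7 (635 peaks) and 8 (350 peaks). In these peaks the fold is thus a count of fragments at the summit divided by the genome mean, and neighbouring values differ by a single fragment. Median fold enrichment was 15.6 in knockdown 2, against 4.98 in knockdown 1 and 8.1 in knockdown size3, where a fragment is worth 0.485 and 1.16.

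**Figure D2:**
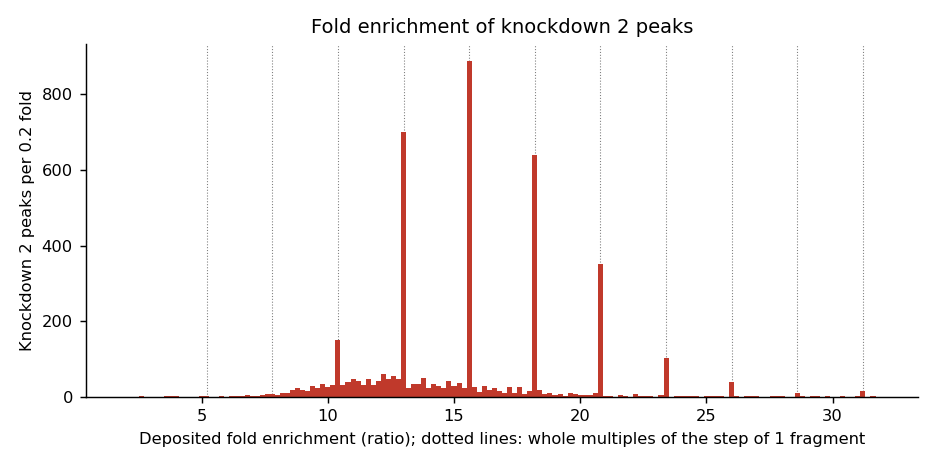
Number of knockdown 2 peaks per 0.2 units of deposited fold enrichment (a ratio), up to 32-fold; dotted lines mark whole multiples of the value of 1 fragment, 2.60. The spikes at 5, 6 and 7 fragments hold 637, 877 and 635 peaks.

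A small class of peaks carried much of the signal. The 74 peaks with 50 or more reads made up 1.64% of the list and 38.9% of the reads in peaks, with a median width of 667.5 bp. Of these, 74.3% overlapped a peak of another list, against 0.773% of the peaks with 8 reads. Summits inside protein-coding genes made up 39.1% of the 8-read peaks (Wilson interval 37.1 to 41.3%), 43.1% of those with 9 or 10 reads and 44.6% of those with 11 to 15. The share was 30.9% at 16 to 49 reads (23.9 to 39.0%) and 19.6% at 50 or more (11.3 to 31.8%, 56 peaks on chromosomes 1 to 19, X and Y). The share at least 500 kb from a gene was 9.98% in the 8-read peaks, 5.28% at 11 to 15 reads and 5.04% at 16 to 49. At 50 or more it was 7.14% (2.81 to 16.98%), but those 4 peaks lie at a single place, chr2:98662171-98667384. A further 16 of the 56 bright peaks form 1 cluster outside genes, at chr9:2999941-3038396. Both intervals of this class treat such neighbouring peaks as independent and are therefore too narrow.

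Relative to genes, the summits were placed much as the sequence itself is. The sequence here is every position between the first and last gene or peak of a chromosome, whether or not reads can be placed there. It includes 90.7 Mb of Y, where 2.49% lies in genes and 7 peaks were found. It is not weighted for the unlike peak rates of the chromosomes. On chromosomes 1 to 19, X and Y, 1816 of 4451 summits (40.8%, Wilson interval 39.4 to 42.3%) lay inside a protein-coding gene, and such genes make up 38.7% of the sequence. Gene ends were the exception: 71 summits (1.60%, 1.27 to 2.01%) lay within 1 kb of an end, which takes up 2.96% of the sequence. Gene deserts, defined as sequence at least 500 kb from a protein-coding gene, held 364 summits (8.18%, 7.41 to 9.02%) and make up 8.23% of the sequence. At least 1 Mb from a gene were 98 summits, or 2.20%, where 2.55% of the sequence lies. Outside genes the median distance to the nearest was 70.6 kb for summits and 84.6 kb for the sequence.

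At a distance of 500 kb, knockdown 2 had the highest share of summits in deserts among the 6 lists. The others reached 1.46% in knockdown 1, 1.39% in knockdown size3, 6.999% in control 1, 6.67% in control 2 and 1.91% in control size3. The difference from their mean of 3.69 ± 2.88% (SD, n = 5 lists) was 4.49 percentage points (exact permutation test, two-sided, p = 0.167, the smallest possible). The first rank depends on that distance. At 250 kb the share was 16.3% in knockdown 2, against 18.98% in control 1 and 18.8% in control 2 (exact permutation p = 1), and at 1 Mb it was 2.20%, against 3.23% in control 1 (p = 0.833 by the same permutation). With every annotated gene counted in place of protein-coding genes the difference at 500 kb was 0.0326 points. Control 1 has a Wilson interval of 5.38 to 9.06% that includes the knockdown 2 share. The share inside genes (51.3 ± 9.74% in the other lists) and that within 1 kb of a gene end (7.41 ± 6.70%) were each second lowest of 6, and neither difference was detectable by that test (-10.48 points, exact permutation p = 0.667, and -5.81 points, p = 0.667). Control 2 was below knockdown 2 in both, with 39.4% inside genes and 0 of 165 summits at a gene end, which allows up to 2.28% by the Wilson interval.

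**Figure D3:**
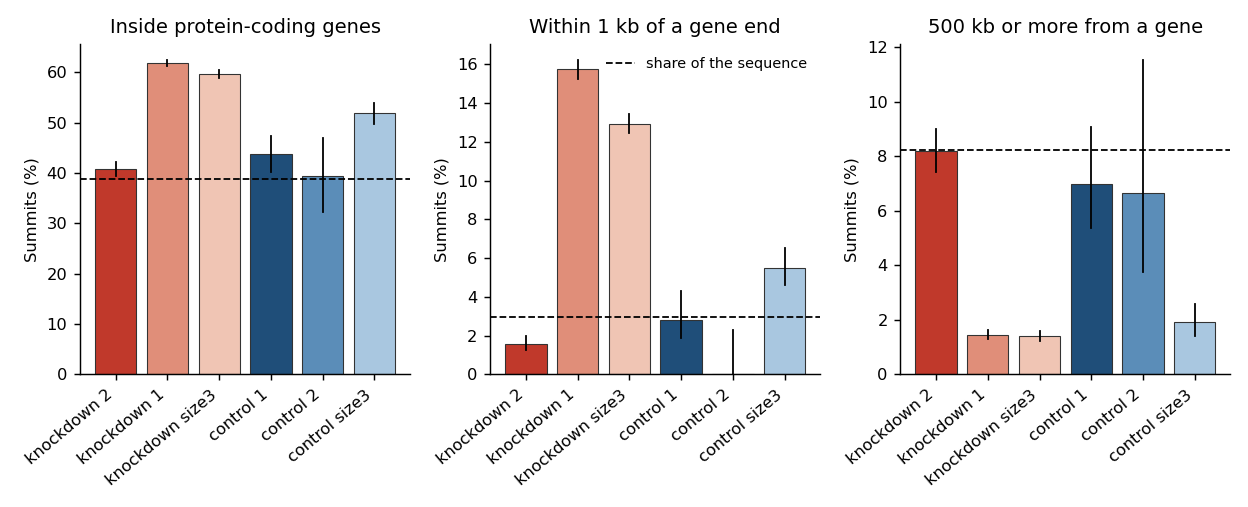
Percent of summits on chromosomes 1 to 19, X and Y that lie inside protein-coding genes, within 1 kb of a gene end, or 500 kb or more from a gene, for the 6 peak lists; lines are Wilson 95% intervals and dashed lines the share of the sequence. For knockdown 2 the 3 shares are 40.8%, 1.60% and 8.18%, and those of the sequence 38.7%, 2.96% and 8.23%.

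Of the 71 summits at a gene end, the 10 with the highest fold enrichment ranged from 18.2 to 33.8-fold and held 9 to 16 reads. The Dach2 peak led them. Asic2, an acid-sensing sodium channel, followed with 12 reads and 28.6-fold at chr11:81573492-81573782. Tmc2, a channel of hair cell mechanotransduction, had 9 reads and 23.4-fold in a peak of 188 bp. Olfr115 and Olfr1469, odorant receptor genes, had 10 and 9 reads. Asxl2, a Polycomb-linked chromatin regulator, had 16 reads and 20.8-fold at chr12:3509597-3510046, and Pak2, a kinase of the actin cytoskeleton, 10 reads and 20.8-fold. Duxf3, Lrif1 and the nuclear pore gene Nup155 completed the group with 10 reads each. None of these 10 peaks overlapped a peak of another list, and each had a false discovery rate of 100% from the caller.

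At the other extreme, the farthest summit lay 2.22 Mb from any protein-coding gene, in a peak of 173 bp and 9 reads at chr14:90690077-90690249. Its nearest gene was Pcdh20, a protocadherin. The same desert of chromosome 14 held peaks at 2.08 Mb from Pcdh20 and at 1.89 Mb from Pcdh9, each of 8 reads and 18.2-fold. A peak 1.96 Mb from the zinc transporter gene Slc39a10, at chr1:48881463-48881682, was brighter, with 22 reads and 57.2-fold, and overlapped a peak of control 1.

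Chromosomes differed widely. Over all 21 the list held 1.67 peaks per Mb. Chromosome 10 had 519 peaks (4.07 per Mb), chromosome 19 had 234 (4.02), chromosome 17 had 352 (3.83), chromosome 3 had 573 (3.65) and chromosome 6 had 372 (2.54). These 5 held 2050 peaks, or 46.1% of those on chromosomes, in 21.8% of the sequence. Chromosome 13 had the lowest autosomal rate, 49 peaks and 0.418 per Mb; the rate of chromosome 10 was 9.75 times as high. X had 42 peaks and Y 7. Without the 8-read peaks the rates were 2.29 per Mb on chromosome 10, 2.37 on chromosome 19 and 0.205 on chromosome 13.

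The order of the chromosomes was shared in part with the other lists. Spearman's rho of peaks per Mb over the 21 chromosomes was 0.906 with knockdown size3, 0.830 with control size3, 0.738 with control 1, 0.692 with knockdown 1 and 0.620 with control 2; these are descriptions, since all lists share the genome and its mappable sequence. With protein-coding genes per Mb it was 0.416. On the 5 chromosomes named above, knockdown 1 had 25.5% of its peaks, knockdown size3 31.9%, control 1 60.7%, control 2 44.8% and control size3 41.1%. Within chromosome 10 the peaks gathered at its far end: the 10 Mb from 110 to 120 Mb held 86 peaks (8.6 per Mb) and the next 10 Mb held 70, against a median of 1.3 per Mb over 271 such bins, of which 10 had no peak. In these 2 bins control 1 had 2.1 and 1.7 peaks per Mb, against 0.659 over chromosome 10. Control 2 had 0.3 and 0.5 (0.133) and control size3 1.8 and 1.6 (1.33). Knockdown size3 had 11.7 and 14.7 (9.97) and knockdown 1 9.2 and 13 (9.32), and both were denser at 80 to 90 Mb.

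**Figure D4:**
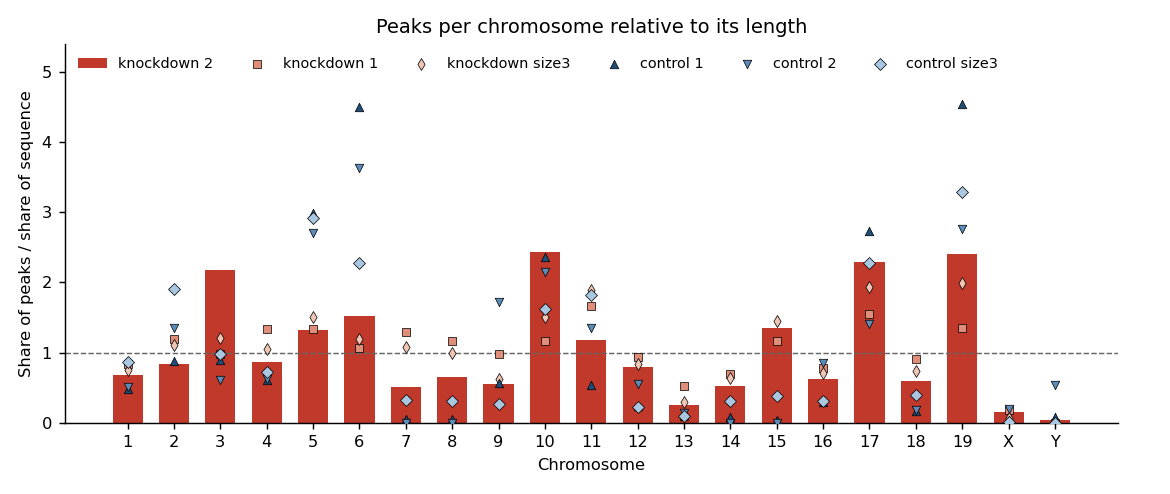
Share of each list's peaks on a chromosome divided by the share of sequence on it; bars are knockdown 2, symbols the 5 other lists, and the dashed line is a share equal to that of the sequence. Chromosomes 3, 10, 17 and 19 stand highest for knockdown 2 and chromosomes 13, X and Y lowest.

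Neighbouring summits were usually far apart, with a median gap of 271 kb, and 378 summits (8.49%) had another within 10 kb. In all, 1425 of 21770 protein-coding genes (6.55%) held a summit in their body. Of these, 1142 held 1, 193 held 2 and 90 (0.413% of all genes) held 3 or more, with 337 summits between them. The count of 90 rests on peaks of few reads: it was 19 without the 8-read peaks, a setting chosen after seeing the data, and 4 at a score of at least 70. Genes with several peaks were long: their median length was 395 kb, against 102 kb for genes with any summit and 17.2 kb for all genes, and 78 of the 90 exceeded 100 kb. Of the 90, 57 lay on chromosomes 3, 6, 10, 17 and 19.

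Per length of gene, the number of summits changed little. Genes under 50 kb had 1.57 summits per Mb, those of 50 to 100 kb 2.20, those of 100 to 250 kb 1.87, and those over 1000 kb 1.42. The share of genes with a summit went with length: 2.19% under 50 kb, 22.4% between 100 and 250 kb, and 78.0% over 1000 kb (46 of 59 genes).

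**Figure D5:**
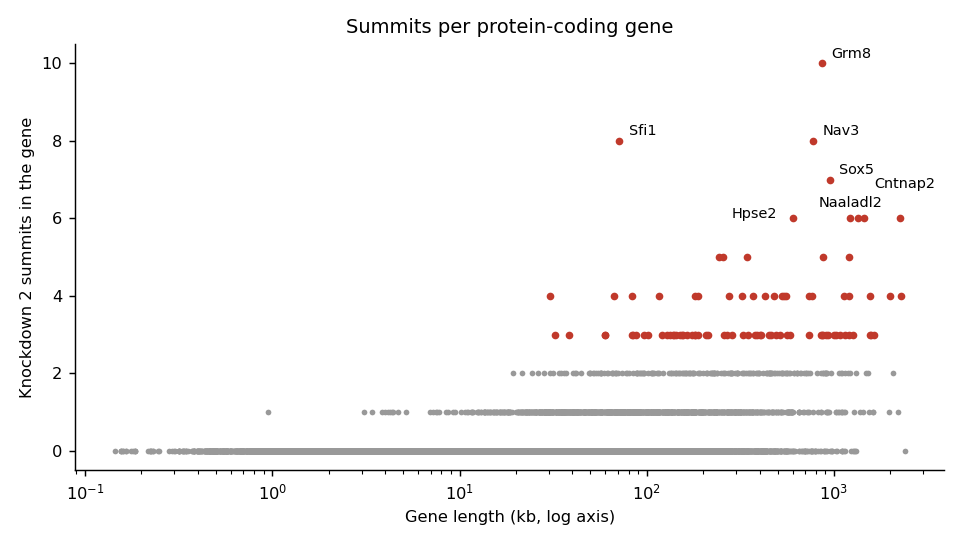
Knockdown 2 summits in the body of each protein-coding gene against gene length in kb (log axis); red points are the 90 genes with 3 or more summits, and 7 of those with 6 or more are named. Most red points lie beyond 100 kb; Sfi1, with 8 summits in 71.5 kb, stands to the left of the others with as many.

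Grm8, a metabotropic glutamate receptor gene of 860 kb on chromosome 6, held the most summits, 10. Its peaks had 8 reads in 7 cases and 9, 10 and 11 in the others, spread from 3.53 to 716 kb from the lower end of the gene, and none overlapped another list. The mean rate of chromosome 6 over that length gives 2.18. Here and below, genes were named because their counts were the highest, so counts above the rate follow in part from that choice. That rate hides local density: the 10 Mb bin that holds Grm8 had 4.6 peaks per Mb, against 2.54 over the chromosome. Nav3, which codes for a microtubule-binding navigator protein, held 8 summits in 774 kb on chromosome 10, with 8 to 14 reads, where the rate gives 3.15, and 3 of them lay between 567.8 and 577.1 kb from its lower end. The gene crosses from a 10 Mb bin of 3.2 peaks per Mb into the densest bin of all, of 8.6, against 4.07 over chromosome 10. Sox5, a transcription factor of cartilage development, had 7 summits with 8 to 13 reads, and the rate gives 2.42. 

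Other long genes stood closer to that rate. Cntnap2, a neurexin-related adhesion gene of 2241 kb, held 6 summits where its chromosome's rate gives 5.69. Naaladl2 held 6 where it gives 4.92. Ptprd, a receptor phosphatase gene of 2271 kb and the longest of the 20 genes with most summits, held 4 against 3.30. In these 3 genes no peak had more than 10 reads. Of the 90 genes with 3 or more summits, some held fewer than the rate gives. Pcdh15 had 4 against 6.32 and Ctnna3 3 against 6.41.

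Further genes held 4 to 6 summits and differed widely in length. Nf1, which codes for the Ras regulator neurofibromin, had 5 summits of 8 or 9 reads in 242 kb (0.479 from the rate), and Ptprr, a receptor phosphatase gene, 5 in 257 kb (1.05). Ptprr lies in the densest 10 Mb bin, of 8.6 peaks per Mb, against 4.07 over its chromosome. Sybu, the gene of syntabulin, which links cargo to kinesin, had 4 in 116 kb (0.264), of which 1 held 45 reads at 31.2-fold and the rest 8. Zfp979, a zinc finger gene of 30.6 kb on chromosome 4, had 4 summits, 15.5 to 18.9 kb from its lower end, with 13, 13, 8 and 11 reads. Dock2, a Rac activator of blood cells, had peaks of 8, 58, 87 and 14 reads, and those of 58 and 87 overlapped peaks of control 1 and control 2. Dpyd, Ccser1 and Hpse2, coding for a pyrimidine-degrading enzyme, a coiled-coil protein and the heparanase-related protein heparanase 2, held 5, 5 and 6 summits with 8 to 10 reads. They span 871, 1203 and 602 kb, over which the rate gives 3.18, 3.05 and 2.42. Kcnip4, which codes for a potassium channel partner, and Syne1, the gene of the nuclear envelope spectrin-repeat protein nesprin-1, held 4 each. Their lengths are 1136 and 531 kb, where the rate gives 2.50 and 2.16.

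Sfi1, which codes for a centrosomal protein, differed from the rest in its reads. Its 8 peaks in 71.5 kb held 22, 8, 8, 8, 28, 10, 10 and 2608 reads from the lower end upward. The last was the widest peak of the list, 15914 bp at chr11:3184182-3200095, with a fold enrichment of 6.5. Neither Sfi1 nor Zfp979 nor Sybu held a summit in any other list. Reads of sequences that occur in near-identical copies, as is known for zinc finger and receptor gene families, can be split or misplaced between copies, and that was not tested.

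Supt3 and Runx2 overlap on chromosome 17. Supt3, a subunit gene of the SAGA coactivator, held 5 summits of 8 to 12 reads in 342 kb, where the rate gives 1.31. The first of them, chr17:44811517-44811864 with 10 reads and 15.6-fold, also lies in Runx2, the master transcription factor gene of osteoblasts, and is its only knockdown 2 peak. Macf1 itself, at chr4:123349633-123687802, had no knockdown 2 peak in its 338 kb or within 5 kb. The nearest summit was 2141 kb away in a peak of 9 reads.

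Gene groups were counted by members with a peak in the body or within 5 kb, which 1739 of 21770 protein-coding genes (7.99%) had. Among osteoblast genes 5 of 38 (13.2%) did, with 1 peak each: Enpp1, the pyrophosphate-forming enzyme (15 reads, 20.8-fold), Cdh2 or N-cadherin (8 reads), Runx2, Tnc or tenascin-C (8 reads), and Dlx3, a homeobox factor (17 reads, 7.88-fold), the last named after its values had been seen. That Dlx3 peak overlapped a peak of knockdown size3. Sp7, Col1a1, Bglap and Alpl, defining genes of the lineage, had none. In the Wnt pathway it was 8 of 62 (12.9%), again 1 peak each. They included the receptor Ror2 (19 reads, 27.0-fold), the kinase gene Gsk3b (8 reads), Rnf43, a ligase that removes Wnt receptors (10 reads), and the secreted inhibitor Dkk2 (9 reads).

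Cytoskeletal linker genes had a peak in 7 of 37 (18.9%). Utrn, which ties actin to the membrane, had 3, and the microtubule plus-end genes Clip1 and Clasp1 had 2 each. Camsap2, for a minus-end protein, had 1. Of a list of E-box, E2F and Polycomb-type factor genes 3 of 23 had one: Rnf2 (2 peaks), E2f5 and, within 5 kb of the gene but outside it, E2f1. Genes of neuronal adhesion and synapses, whose median length is 907 kb, had a peak in 32 of 50 (64%). Cntnap2, Ptprd, Macrod2 and Csmd1 led them with 6, 4, 4 and 3. Cadherins and protocadherins had one in 11 of 40, with 4 in Pcdh15, 3 each in Cdh18 and Cdh12 and 2 in Cdh13. Housekeeping genes, with a median length of 4.00 kb, had a peak in 2 of 30, Hprt and Rpl5, and chemoreceptor genes, of 0.951 kb, in 31 of 1459 (2.12%), among them Vmn2r95 and Vmn2r3. In order of median length, the shares of the 8 lists went up from 2.12% to 64%, with the Wnt genes (34.9 kb) the 1 list out of order.

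The caller's false discovery rate, which counts peaks found with immunoprecipitate and input exchanged, was 100% for 98.4% of the list. It was at most 5% for 51 peaks, or 1.13%, and 0 for 41 of them. Those 51 form 23 places and hold 24856 reads, 35.4% of the reads in peaks, and 41 overlapped a peak of control 1 or control 2. The largest cluster was 16 peaks with 4343 reads at chr9:2999941-3038396, 297036 to 335120 bp from the nearest protein-coding gene. A single peak of 5364 reads, the most in the list, lay at chr14:19415631-19419767, and 4 peaks with 3463 reads at chr2:98662171-98667384, 1.03 Mb from the synaptic adhesion gene Lrrc4c. At chr17:39842949-39846796, 104803 bp from the pheromone gene Esp38, a peak held 2321 reads at 2.67-fold, the lowest fold of the list, and overlapped peaks of knockdown 1 and knockdown size3.

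The highest fold enrichment, 167.28, was in the neural adhesion gene Chl1 at chr6:103648882-103649554, where 273 reads lay in 673 bp; it overlapped peaks of control 1 and control 2. Next came peaks near Pak3, a neuronal kinase gene (72 reads, 121-fold), Epha7, an ephrin receptor gene (47 reads, 105-fold, 636098 bp from it), and Frmd4a (31 reads, 80.6-fold), each overlapping a peak of control 1 or control 2. Cldn34d, a claudin gene on X, held a peak of 293 reads at 46.5-fold that overlapped both. Off the chromosomes lay 62 peaks, 57 on 12 unplaced sequences and 5 mitochondrial, with a median of 23.5 reads, against 9 for peaks on chromosomes.

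Few knockdown 2 peaks recurred elsewhere. An overlap of at least 1 bp with any other list was found for 177 peaks (3.92%, Wilson interval 3.39 to 4.53%), and 4336 (96.1%) overlapped none. The 108 that met a peak of control 1 or control 2 had a median of 44.5 reads, and the 64 that met one of knockdown 1 or knockdown size3 had a median of 13. None of these 108 was among the 64, although 1 of the 64, at chr5:14946566-14947014, also overlapped a peak of control size3. As a share of each list, 44 knockdown 2 peaks (0.975%) overlapped 43 of knockdown 1 (0.201%), and 24 (0.532%) overlapped 24 of knockdown size3 (0.136%). Of control 1, 77 peaks (9.97%) were met by 89 of knockdown 2 (1.97%), and of control 2, 74 (37.4%) by 92 (2.04%). The lists cover unlike amounts of sequence: 30582 kb in knockdown 1 and 13510 kb in knockdown size3, against 626 kb in control 1 and 220 kb in control 2. How much overlap the covered sequence alone would give was not tested. Among the 64 shared with the other knockdown lists, 9.38% lay within 1 kb of a gene end, against 1.48% of the peaks found in no other list. Those 64 were picked by overlap with lists that are themselves rich in gene ends. The same share was 15.7% over all summits of knockdown 1 and 12.9% over those of knockdown size3, so the contrast says nothing further about the shared peaks.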

How the data were processed

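Peak lists of 6 immunoprecipitates, each called against its own input and not pooled, were deposited by the authors. Per the file headers, MACS 1.4.2 was run on uniquely mapped reads with an effective genome size of 1.87e+09, a band width of 300, a cutoff on p of 1.00e-05, at most 1 read per position, local backgrounds of 1000 and 10000 bp, and the larger library scaled to the smaller. Cutadapt, Bowtie2 and GRCm38 are named in the submitters' processing notes. Each deposited peak has its width and summit offset in bp, a count of reads, a score (-10 log10 of its p-value), a fold enrichment (a ratio) and a false discovery rate in percent. These are the authors' own values and describe peaks within their list.

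Summits on chromosomes 1 to 19, X and Y were placed on RefSeq genes (GRCm38.p6); 348 gene rows on scaffold coordinates were left out. Width and reads use all peaks. Deserts begin 500 kb from a protein-coding gene. Shares have Wilson 95% intervals, which cover counting error only. Knockdown 2 was set against the 5 other lists by exact permutation (6 assignments). No test compares peaks within the list. Alternatives are given at the end. The members and gene lists were chosen with earlier results of these data known. Named genes are Macf1, the 20 genes with most summits, the 10 peaks first by score, by reads and by fold, the 10 gene-end summits of highest fold, the 5 farthest from genes, and up to 4 members per list, of which a few are not reported here; other named genes are given as such or for context. The permutation and location steps were tested on simulated data. Python 3.11.15, pandas 2.3.3, NumPy 2.4.6, SciPy 1.17.1 and matplotlib 3.10.9 were used.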

Additional observations from a re-analysis of the deposited data

How the results depend on the processing

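Of 69 alternatives, 65 kept their direction (for differences) or stayed within 1.5 times the count, 2 reversed and 2 counts moved. The labels give knockdown and control lists the same numbers, without saying that a number marks a shared culture or day. With the replicate block, here knockdown 2 minus control 2, the share inside genes turned to 1.406 points and that at gene ends to 1.595 points; deserts gave 1.511 points, width -1.382 and reads -2.385 on the log2 scale. Pairing could not be checked from 1 value per list. Leaving out 1 other library at a time gave differences of -1.182 to -1.029 for width, -1.823 to -1.435 for reads, 3.918 to 5.319 points for deserts, -13.45 to -7.847 for genes and -7.661 to -3.725 for gene ends, the last without knockdown 1. Genes with 3 or more summits numbered 4 at a score of at least 70, where fewer peaks remain, and 19 without the 8-read peaks, a setting chosen after seeing the data, against 90. With lists of equal length the differences were -1.435 for width (exact permutation p = 0.333), -0.8157 for reads (p = 0.5), 8.763 for deserts (p = 0.167), -33.93 for genes (p = 0.333) and -14.39 for gene ends (p = 0.667). The desert difference was 0.0326 points with all annotated genes (exact permutation p = 0.333), 0.928 at 1 Mb (p = 0.833), 5.97 at 250 kb (p = 1), 3.924 at a score of at least 70 (p = 1) and 2.93 without the 8-read peaks (p = 0.833). The cause was not tested. With 6 lists no test here can pass 0.05, and at 5575205 reads a peak rests on 8 or more reads.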
